A study of Mus musculus with 2 samples.

Results

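Microexons of 3 to 27 nucleotides (nt) were examined in long-read RNA sequencing of gastrocnemius, a fast muscle of the lower leg. An internal exon of that length was a member if it lay in a transcript model with a count in either library, in the classes Known (annotated), ISM (a part of an annotated chain of introns), NIC (annotated splice sites in another combination) or NNC (1 or more unannotated splice sites). There were 893 members among 175551 internal exons of any length, in 736 genes. The study has 1 group, male B6CASTF1/J mice 4 days old, with 2 biological replicates sequenced from 2 µg of total RNA each. Whether the replicates were 2 mice is not clear from the labels, which list a biosample for each but the same donor entry for both, and every spread given is between these 2 libraries. There was no second condition, so the comparisons made are between exons, between length classes and between the libraries.

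Inclusion of an exon is the share of its informative counts that lay on models with the exact exon, the rest being counts on models with an intron that spans it. Of the 893 members, 384 in 328 genes had at least 10 informative counts in each library, and they are described here. The other 509 members did not reach that number, and 314 of them had exact ends in the GENCODE M21 annotation. Of all members, 535 had inclusion counts in both libraries, 174 in replicate 1 alone and 184 in replicate 2 alone, and 291 rested on 1 count in the sum of both libraries. The libraries held 1066347 and 1100253 counts, of which 93.4% and 91.7% fell in the 4 classes. The median described microexon had 54.0 informative counts in replicate 1 and 48.5 in replicate 2. Exact Clopper-Pearson intervals at the 95% level are given for single libraries, and they cover counting error only. Reads that hold a microexon or skip it come from all cells of the muscle, so a change of cell makeup and a change of splicing within a cell cannot be told apart in these bulk libraries.

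An exon is recognised by the splicing machinery across its own length, and very short exons leave little room for factors bound at both of their ends, so their use relies on sequences in the neighbouring introns. Microexons are best known from neurons, where the serine/arginine repetitive matrix protein Srrm4 promotes the inclusion of a set of them, and skeletal and heart muscle have a set of their own, for which RBFOX, MBNL and CELF proteins are known regulators. Many add a few residues to a protein without changing the reading frame, often at a surface that binds a partner.

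The sequences below are the spliced mouse reference (GENCODE M21 transcripts, mm10, written 5′ to 3′ on the transcript strand), and the capitals mark the microexon between bases of the exons before and after it. The first set shows coding microexons that part of the transcripts carried and others skipped, chosen for their counts or for their place in muscle cells.
Dnm2, 12 nt, chr9:21490658-21490669, plus strand: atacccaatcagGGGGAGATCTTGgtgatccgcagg
Abi1, 15 nt, chr2:22963214-22963228, minus strand: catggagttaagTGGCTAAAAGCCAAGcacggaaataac
Sptan1, 15 nt, chr2:30014158-30014172, plus strand: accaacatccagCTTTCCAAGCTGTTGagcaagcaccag
Anxa6, 18 nt, chr11:54987051-54987068, minus strand: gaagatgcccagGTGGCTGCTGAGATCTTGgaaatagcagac
Tmed2, 21 nt, chr5:124543487-124543507, plus strand: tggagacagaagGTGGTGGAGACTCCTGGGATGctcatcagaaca
Dctn1, 21 nt, chr6:83187764-83187784, plus strand: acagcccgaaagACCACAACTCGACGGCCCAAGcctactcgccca
Mef2d, 21 nt, chr3:88161781-88161801, plus strand: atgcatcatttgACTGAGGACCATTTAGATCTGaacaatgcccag
Mef2a, 24 nt, chr7:67244521-67244544, minus strand: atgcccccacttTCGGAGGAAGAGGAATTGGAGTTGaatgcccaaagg
Flna, 24 nt, chrX:74232967-74232990, minus strand: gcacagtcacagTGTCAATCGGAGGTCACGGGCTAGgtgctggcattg
Stim2, 24 nt, chr5:54110116-54110139, plus strand: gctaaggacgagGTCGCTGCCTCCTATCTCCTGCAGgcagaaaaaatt
Mtmr1, 24 nt, chrX:71376887-71376910, plus strand: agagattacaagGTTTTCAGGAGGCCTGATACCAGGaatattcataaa
Mtmr1, 27 nt, chrX:71377604-71377630, plus strand: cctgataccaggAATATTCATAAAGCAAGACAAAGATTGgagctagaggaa
Axl, 27 nt, chr7:25773099-25773125, minus strand: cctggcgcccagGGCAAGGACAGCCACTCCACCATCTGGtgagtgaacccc

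The second set shows microexons of the same length in related genes, with 6 bases on each side, and most of these were carried by nearly all informative transcripts.
Dapk1, 27 nt, chr13:60718437-60718463, plus strand: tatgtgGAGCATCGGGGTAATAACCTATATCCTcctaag
Dapk2, 27 nt, chr9:66251075-66251101, plus strand: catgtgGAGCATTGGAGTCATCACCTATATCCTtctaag
Dapk3, 27 nt, chr10:81191042-81191068, plus strand: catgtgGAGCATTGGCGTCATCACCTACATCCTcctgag
Ythdf1, 25 nt, chr2:180920312-180920336, minus strand: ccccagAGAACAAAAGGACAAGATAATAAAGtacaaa
Ythdf2, 25 nt, chr4:132211432-132211456, minus strand: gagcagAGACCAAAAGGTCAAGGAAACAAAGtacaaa
Ythdf3, 25 nt, chr3:16183922-16183946, plus strand: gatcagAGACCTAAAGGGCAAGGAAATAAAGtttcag
Pcbp2, 24 nt, chr15:102474131-102474154, plus strand: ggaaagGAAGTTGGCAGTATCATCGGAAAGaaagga
Pcbp3, 24 nt, chr10:76799529-76799552, minus strand: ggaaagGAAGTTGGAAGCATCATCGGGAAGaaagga
Pcbp4, 24 nt, chr9:106460276-106460299, plus strand: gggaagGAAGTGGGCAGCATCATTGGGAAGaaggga
Flnc, 24 nt, chr6:29451997-29452020, plus strand: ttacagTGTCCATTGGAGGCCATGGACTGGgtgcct
Col6a1, 27 nt, chr10:76718979-76719005, minus strand: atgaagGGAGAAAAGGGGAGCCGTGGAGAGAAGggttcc
Col4a1, 27 nt, chr8:11240041-11240067, minus strand: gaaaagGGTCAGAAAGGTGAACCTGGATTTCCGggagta

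Most described microexons were either carried nearly always or carried by part of the transcripts. In both libraries 146 were over 95%, 104 lay at 5 to 95%, 69 were under 5%, and the remaining 65 fell in different classes in the 2 libraries or across a limit. The median inclusion was 90% in replicate 1 and 89.7% in replicate 2, against 100% in both libraries for internal exons of 28 to 50, of 51 to 100, of over 100 and up to 200, and of over 200 nt. The choice of models changed these values. With Known models alone, 181 microexons were described and 25 of them were intermediate. When models with another exon over the same bases were counted as not including the exon, the median was 10.3%. That median is over another set, since 560 exons in place of 384 then had enough informative counts. Of 219 named microexons with a value in that setting, 9 moved by over 10 points. More moved in other settings. With Known models alone, 30 of 90 named microexons moved by over 10 points. When spanning introns had to join both flanking exons, 30 of 193 did.

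Most of the described microexons under 5% lay outside the annotation. A member needs at least 1 inclusion count, so annotated microexons that no counted model held are absent from this class. GENCODE M21 has 2202 internal exons of 3 to 27 nt, of which 612 were members. The makeup of the class thus does not show how often annotated microexons are skipped. Exact ends in GENCODE M21 were found for 298 of the 384, and their median inclusion was 97.3% and 96.1%. Among these, 278 lay wholly in coding sequence, 2 in a 5′ UTR, 9 across coding sequence and a UTR, and 9 in transcripts with no coding sequence. Of the 86 described microexons outside the annotation, 51 were under 5% in both libraries, 12 were intermediate, 22 were split between classes and 1, a 25 nt exon of Ptcd3 at chr6:71889341-71889365, was over 95% (55 of 57 counts and 56 of 56). Of those 86, 54 rested on 1 inclusion count in the sum of both libraries.

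Among annotated exons alone, the intermediate share was largest in the shortest class. It was 30.9% of the 298 microexons, 10.0% of 2824 exons of 28 to 50 nt, 5.01% of 21120 exons of 51 to 100 nt, 3.31% of 35249 exons over 100 and up to 200 nt and 4.25% of 6939 longer exons. The share over 95% ran the other way, from 48.7% of the microexons to 91.6% of exons over 100 and up to 200 nt. These shares are descriptions of the exons counted, and no test over exons was made. On either side of the length limit, 29 of 100 described exons of 27 nt and 9 of 60 of 28 nt were intermediate.

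**Figure D1:**
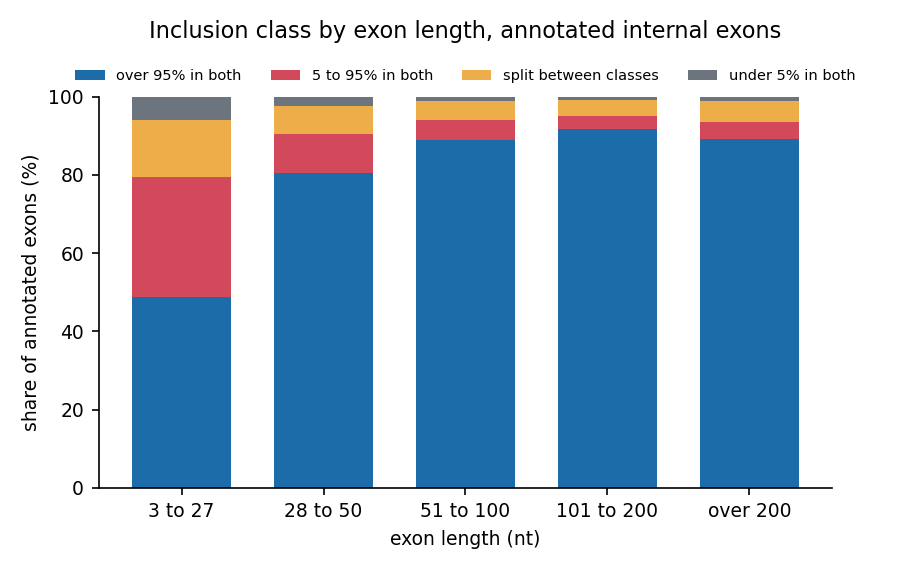
Share of annotated internal exons (y axis, %) in each inclusion class by exon length (x axis, nt), for exons with at least 10 informative counts in each library. The intermediate band is 30.9% of the bar for 3 to 27 nt and 3.31% of the bar for lengths over 100 and up to 200 nt.

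Lengths that are a multiple of 3, which keep the reading frame whether the exon is in or out, made up 56.3% of the described microexons, 40.8% of exons of 28 to 50 nt and 38.8% of exons over 100 and up to 200 nt. Among annotated microexons the share was 77.2% in the intermediate class (71 of 92) and 51.7% in the class over 95% (75 of 145). The intermediate class had the larger share in longer annotated exons too. The 2 shares were 64.7% and 39.0% in exons of 28 to 50 nt, and 47.9% and 38.7% in exons over 100 and up to 200 nt. The single commonest length was 27 nt with 100 described microexons, followed by 24 nt with 51, 25 nt with 48 and 21 nt with 41. Of the 163 annotated coding microexons in this group with a length that is a multiple of 3, 69 began with a whole codon (42.3%), against 65% of such exons of 51 to 100 nt.

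**Figure D2:**
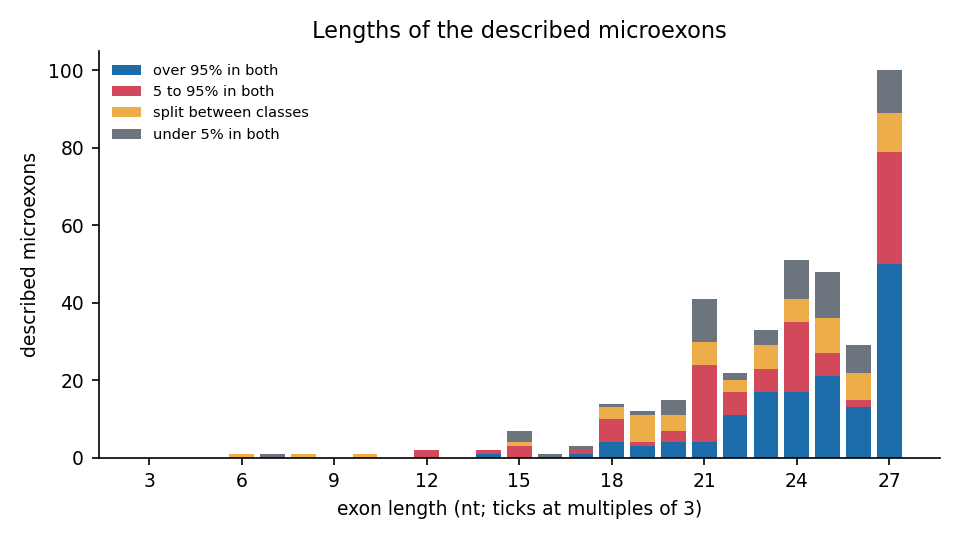
Number of described microexons (y axis) at each length (x axis, nt), coloured by inclusion class in the 2 libraries. The bar at 27 nt holds 100 exons, and lengths under 12 nt hold 4 in all, none of them intermediate.

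The shortest exons were rare in these libraries. Of the 5 shortest described microexons, 4 lay outside the annotation and rested on 1 or 2 inclusion counts each. These were a 6 nt exon of Col3a1 (0 of 26 counts and 1 of 16), a 7 nt exon of Tnnt3 (0 of 122 counts and 2 of 180), an 8 nt exon of Xpot, the tRNA export receptor (2 of 24 counts and 0 of 13), and a 10 nt exon of Col1a1 (0 of 15 counts and 1 of 17). Models that end before an exon or hold another exon over its bases are not informative. The 2 collagen values thus cover a small part of the counts on these genes, 21692 and 15727 for Col3a1 and 12494 and 6976 for Col1a1. Next in length, 2 annotated exons of 12 nt were intermediate, in Agap1, an Arf GTPase regulator, and in Dnm2. In annotated coding microexons the median GC content was 48.0%, against 49.4% in exons of 51 to 100 nt, and G was the last base in 80.9% of them, against 77.9%. G was the first base in 38.5% of them, against 48.7%. No test was made of these shares.

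Of the 104 intermediate microexons, 60 were cassette exons in the plain sense that at least 90% of their spanning counts joined the 2 exons that flank them on including models. Those with the most counts had close values in the libraries. The 21 nt exon of Tmed2, a cargo receptor of vesicles between the endoplasmic reticulum and the Golgi, was on 238 of the 482 informative counts of replicate 1 (49.4%) and 239 of the 507 of replicate 2 (47.1%), with intervals of 44.8 to 53.9% and 42.7 to 51.6%. The 18 nt exon of Anxa6, a calcium-dependent membrane-binding annexin, was on 452 of the 618 informative counts of replicate 1 (73.1%) and 491 of the 658 of replicate 2 (74.6%), with intervals of 69.5 to 76.6% and 71.1 to 77.9%. Both exons were thus carried by part of the transcripts in each library, Tmed2 at 48.3% ± 1.58 (SD, n = 2) and Anxa6 at 73.9% ± 1.05 (SD, n = 2).

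**Figure D3:**
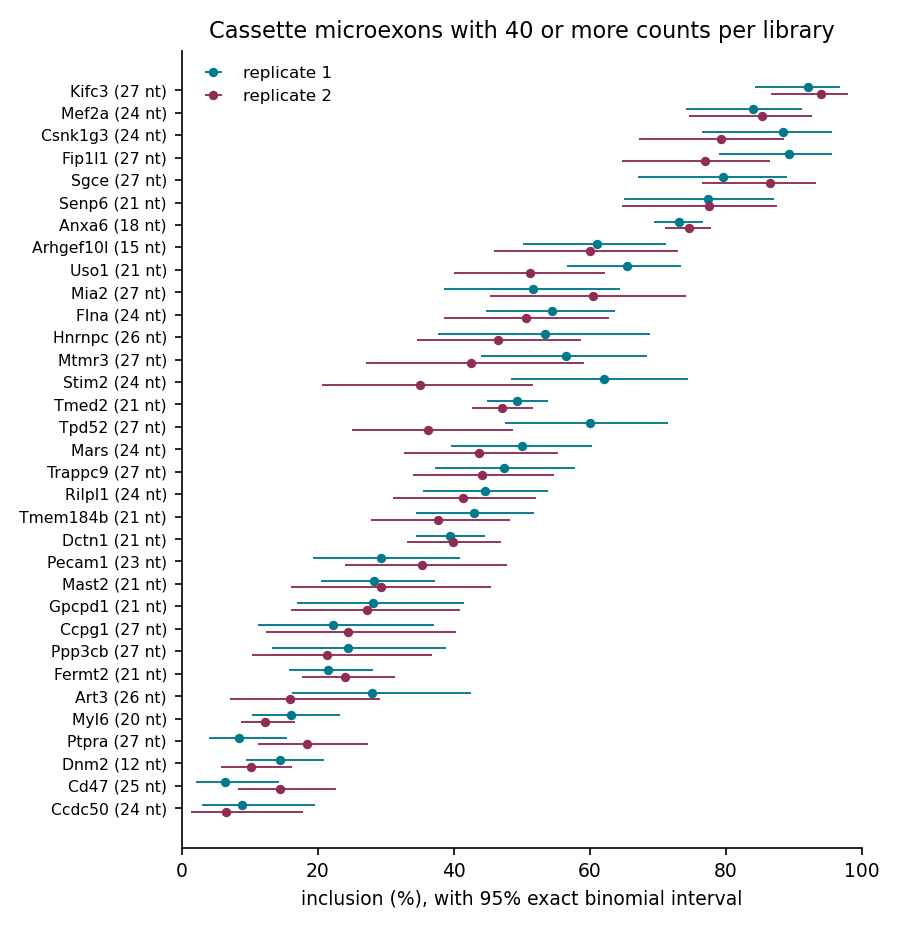
Inclusion (x axis, %) of the 33 intermediate cassette microexons with at least 40 informative counts in each library, one row per exon, with a point per replicate and its 95% exact binomial interval as bars. Mean inclusion runs from 7.73% for Ccdc50 to 93.0% for Kifc3, and the points of a row lie close together for exons with many counts such as Tmed2, Anxa6 and Dctn1.

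The other intermediate exons are given by the roles of their genes, beginning with the cytoskeleton and membrane traffic. This order was made by hand after their values were seen. Some of these exons had few informative counts, so that single reads decide their class. In Dctn1, whose product p150 is the largest subunit of the dynein activator dynactin, the 21 nt exon at chr6:83187764-83187784 was on 148 of the 375 informative counts of replicate 1 (39.5%) and 81 of the 203 of replicate 2 (39.9%). A second 21 nt exon of Dctn1 at chr6:83183936-83183956 was on 3 of 375 counts and 0 of 203, and its 3 counts all lay on models that also held the first. The 12 nt exon of Dnm2, the dynamin GTPase that severs endocytic vesicles, was on 23 of the 159 informative counts of replicate 1 (14.5%) and 15 of the 147 of replicate 2 (10.2%). The 2 exons thus differed widely in level within each library, with Dctn1 at 39.7% ± 0.307 (SD, n = 2) and Dnm2 at 12.3% ± 3.01 (SD, n = 2).

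The 15 nt exon of Sptan1, the alpha chain of non-erythroid spectrin, was on 16 of 48 counts and 13 of 35 (33.3% and 37.1%), whereas its 18 nt exon was on 63 of 63 counts and 43 of 43. The 15 nt exon of Abi1, a subunit of the WAVE actin regulator, was on 12 of 23 counts and 6 of 20, with intervals of 30.6 to 73.2% and 11.9 to 54.3% that overlap. Further genes of vesicle transport had exons near the middle of the range: Trappc9 (27 nt, 47.4% and 44.2%), Rilpl1 (24 nt, 44.5% and 41.3%), Mia2 (27 nt, 51.6% and 60.4%) and Gopc (24 nt, 62.2% and 28.6%). Low inclusion was found in Dctn4 (21 nt, 11.8% and 12.5%), a further dynactin subunit, Zfyve27 (21 nt, 6.67% and 14.3%) and Cdk5rap2 (27 nt, 11.8% and 16.7%). The Zfyve27 exon was on 1 of 15 counts and 2 of 14, and the Cdk5rap2 exon on 2 of 17 counts and 2 of 12. The remaining members of the group were Ipo11 (27 nt, 30% and 38.1%), Snx14 (27 nt, 76.9% and 35.7%), Pcnt (21 nt, 62.5% and 73.3%), Kifc3 (27 nt, 92.0% and 94.0%), Dtnbp1 (23 nt, 90.8% and 93.9%) and Gkap1 (23 nt, 93.8% and 95%). The fixed list of 41 cytoskeletal and traffic genes had 16 genes with a member and 14 described microexons, of which 5 were intermediate, 2 over 95%, 4 under 5% and 3 split. Among all 384 the intermediate share was 27.1%. In Ank2, the adaptor ankyrin-B, a 22 nt exon was on 15 of 15 counts and 18 of 18.

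In the transcription factors of the MEF2 family, which activate muscle genes, both described microexons were mostly included. The 24 nt exon of Mef2a was on 68 of the 81 informative counts of replicate 1 (84.0%) and 58 of the 68 of replicate 2 (85.3%). The 21 nt exon of Mef2d was on 109 of the 128 informative counts of replicate 1 (85.2%) and 77 of the 109 of replicate 2 (70.6%). Of its 19 and 32 spanning counts, 10 and 15 joined the flanking exons. On 8 and 13 the flanking exons were longer by about its own length, and 1 and 4 were of neither kind. The list of 11 transcription factor genes had no other member with a count, so the remaining 9 were not observed with a microexon at this depth.

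Contractile and Z-disc genes had microexons in every class. In Tnnt1, the slow skeletal troponin T, a 27 nt exon was on 75 of 80 counts and 105 of 114 (93.8% and 92.1%) and a 22 nt exon was on 43 of 87 counts and 61 of 125 (49.4% and 48.8%). In Tnnt3, the fast skeletal troponin T, 3 annotated microexons were low: Tnnt3 (18 nt, 8.93% and 5.11%), Tnnt3 (19 nt, 28.2% and 15.8%) and a 15 nt exon on 8 of 110 counts and 5 of 175. No spanning count of these 5 troponin T exons joined both flanking exons. The 18 nt exon of Pdlim5, a Z-disc protein that binds alpha-actinin, was on 230 of 245 counts and 212 of 239 (93.9% and 88.7%). The 18 nt exon of Atp2a2, the calcium pump SERCA2, was on 304 of 325 counts and 180 of 209 (93.5% and 86.1%).

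Exons of filamin and of non-muscle and smooth muscle myosin genes were also intermediate. The 24 nt exon of Flna, the broadly expressed actin cross-linker filamin A, was on 62 of the 114 informative counts of replicate 1 (54.4%) and 36 of the 71 of replicate 2 (50.7%). The exon of the same length in Flnc, the muscle filamin, was on 100 of 100 counts and 59 of 59, and it shares 18 of 24 bases with that of Flna. The 21 nt exon of Myh11, the smooth muscle myosin heavy chain, was on 14 of 23 counts and 7 of 17 (60.9% and 41.2%). The 20 nt exon of Myl6, a non-muscle and smooth muscle light chain, was on 22 of 137 counts and 35 of 285 (16.1% and 12.3%). In sum, the fixed list of 28 sarcomere and Z-disc genes had 15 described microexons, of which 5 were intermediate, 4 over 95%, 4 under 5% and 2 split. Among those not yet given were a 26 nt exon of Lmo7 (83 of 83 counts and 60 of 61) and an unannotated 27 nt exon of Myom1 (1 of 13 counts and 0 of 10). That Myom1 exon starts at the same base as the annotated 23 nt exon of the gene. Models with the 23 nt form (581 and 313 counts) are not informative for it.

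Receptors, adhesion proteins and kinases had intermediate exons as well. The fixed list of 13 adhesion and receptor genes had 5 described microexons, all in Ptk2 and Fermt2, of which 2 were intermediate, 1 under 5% and 2 split. The 27 nt exon of Axl, a receptor tyrosine kinase, was on 203 of the 277 informative counts of replicate 1 (73.3%) and 126 of the 182 of replicate 2 (69.2%). Fak, encoded by Ptk2, is a kinase of focal adhesions, and its 21 nt exon was on 18 of 81 counts and 5 of 34 (22.2% and 14.7%) and its 18 nt exon on 3 of 82 counts and 4 of 34. The 24 nt exon of Stim2, a calcium sensor of the endoplasmic reticulum, was on 36 of 58 counts and 14 of 40 (62.1% and 35%). Its intervals of 48.4 to 74.5% and 20.6 to 51.7% overlap only over a narrow range.

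The receptors Ptpra (27 nt, 8.49% and 18.4%) and Ptprm (27 nt, 30% and 25%), both tyrosine phosphatases, the endothelial adhesion protein Pecam1 (23 nt, 29.3% and 35.3%) and the surface protein Cd47 (25 nt, 6.41% and 14.4%) were below the middle of the range. Kinases gave Mast2 (21 nt, 28.3% and 29.3%), Mark2 (27 nt, 23.4% and 29.7%), Mink1 (24 nt, 47.8% and 12.5%), Prkd1 (24 nt, 70% and 77.8%), Csnk1g3 (24 nt, 88.5% and 79.4%) and Dapk3 (27 nt, 90% and 93.8%). Regulators of small GTPases and G proteins gave Agap1 (12 nt, 18.4% and 32.4%), Arhgap23 (23 nt, 29.2% and 42.9%), Arhgef10l (15 nt, 61.1% and 60%), Rapgef2 (24 nt, 83.3% and 90.9%) and Rgs12 (22 nt, 89.5% and 92.3%). High inclusion was found in Sgce (27 nt, 79.7% and 86.5%), the epsilon-sarcoglycan, Mpp3 (21 nt, 88.1% and 81.5%), Cd55 (21 nt, 90% and 85.7%), Tmeff2 (27 nt, 89.5% and 92.6%) and Bsg (25 nt, 94.2% and 94.1%), the surface glycoprotein basigin.

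Genes of RNA metabolism and gene regulation gave Arntl (21 nt, 5.56% and 10%), a clock transcription factor also called Bmal1, Prpf18 (27 nt, 28.9% and 10.3%) and Clasrp (25 nt, 92.9% and 88.0%), which act in splicing, and Fip1l1 (27 nt, 89.2% and 76.9%), a factor of polyadenylation. The Arntl exon was on 1 of 18 counts and 1 of 10. The 26 nt exon of Hnrnpc in its 5′ UTR was on 23 of 43 counts and 33 of 71 (53.5% and 46.5%). The group also held Suds3 (22 nt, 93.7% and 87.5%), Rps24 (18 nt, 50% and 33.3%), a protein of the small ribosomal subunit, and Mars (24 nt, 50% and 43.8%), the methionyl-tRNA synthetase. The Rps24 value depended on the models counted, since it was 16.4% in replicate 1 when models with an overlapping exon counted as not including the exon.

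The lipid phosphatases of the myotubularin family gave Mtmr1 (24 nt, 78.4% and 50%), Mtmr1 (27 nt, 63.9% and 41.4%) and Mtmr3 (27 nt, 56.5% and 42.5%). Ubiquitin and SUMO enzymes gave Herc4 (24 nt, 37.5% and 50%), Herc3 (24 nt, 53.9% and 55.8%), Fbxo25 (27 nt, 69.2% and 29.6%) and Senp6 (21 nt, 77.4% and 77.6%), and a muscle ubiquitin ligase of the MURF group gave Trim55 (23 nt, 87.5% and 88.6%). The related tumour protein D52 genes gave Tpd52 (27 nt, 60% and 36.2%) and Tpd52l2 (27 nt, 15.1% and 18.3%). Membrane and secretory proteins gave Tmem184b (21 nt, 43.0% and 37.6%), Slc38a10 (24 nt, 19.4% and 14.5%), Uggt1 (24 nt, 60% and 77.8%), which senses misfolded glycoproteins, Rhbdl3 (24 nt, 68.2% and 61.5%), Dpy19l1 (25 nt, 94.9% and 90.9%) and Suco (21 nt, 93.3% and 80%). The rest of the annotated group were Lrrfip1 (18 nt, 67.2% and 58.1%), Carns1 (27 nt, 80.7% and 77.8%), the carnosine synthase, Nrbp2 (24 nt, 90% and 90.9%), Pts (23 nt, 90% and 92.3%), Urgcp (27 nt, 93.1% and 90.5%), Naa20 (25 nt, 90.7% and 93.9%), Nap1l1 (20 nt, 92.5% and 92.6%) and Sugt1 (17 nt, 94.6% and 94.9%). Few counts lay behind Nrbp2 (9 of 10 counts and 10 of 11) and Pts (9 of 10 counts and 12 of 13).

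Of the 104 intermediate microexons, 12 had ends outside GENCODE M21, and 10 of these were cassettes. The 21 nt exon of Uso1, a tether of Golgi vesicles, was on 87 of the 133 informative counts of replicate 1 (65.4%) and 43 of the 84 of replicate 2 (51.2%). The 21 nt exon of Fermt2, the integrin activator kindlin-2, was on 40 of the 186 informative counts of replicate 1 (21.5%) and 39 of the 162 of replicate 2 (24.1%). A second Fermt2 exon of 24 nt was on 10 of 186 counts and 8 of 162. The 27 nt exon of Ppp3cb, a catalytic subunit of the calcium-dependent phosphatase calcineurin, was on 12 of 49 counts and 9 of 42 (24.5% and 21.4%). The 3 intermediate ones were thus seen with several counts in each library, although no annotated transcript holds them.

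The other unannotated ones were Gpcpd1 (21 nt, 28.1% and 27.3%), Ccpg1 (27 nt, 22.2% and 24.4%), Art3 (26 nt, 28.0% and 16.0%), Ccnl2 (14 nt, 11.1% and 14.3%), Ccdc50 (24 nt, 8.93% and 6.52%), Fgfr1op (22 nt, 6.52% and 8.33%), Kdm1b (21 nt, 8.33% and 20%), Uckl1 (20 nt, 70% and 68.4%) and Srpk3 (22 nt, 44.4% and 50%). The last shares its bases with the annotated 26 nt exon of Srpk3, a muscle kinase of SR proteins, which was on 460 of 470 counts and 459 of 465. With models that hold an overlapping exon counted as not including it, the 22 nt form was at 1.42% in replicate 1. The Kdm1b exon was on 1 of 12 counts and 2 of 10.

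Microexons that nearly all transcripts carried included the best covered ones. Of the 10 with the most counts over 95%, those outside collagens were a 23 nt exon of Trim35 (1314 of 1336 counts and 1094 of 1120), the 26 nt exon of Srpk3, the 23 nt exons of Myom1 (581 of 593 counts and 313 of 323) and Myom2 (576 of 579 counts and 359 of 362), which cross-link the M-band of the sarcomere, and 2 exons of the ribosomal protein gene Rpl41. The Rpl41 exons were on 478 of 479 counts and 768 of 769 for 23 nt and 441 of 442 counts and 728 of 728 for 25 nt. Of the 146, 79 were at 100% in both libraries. Trdn, which encodes triadin of the calcium release complex, had the most described microexons of any gene, 7, and all were over 95% in both libraries. Its 18 nt exon was on 170 of 174 counts and 177 of 181, its 24 nt exon on 92 of 94 counts and 92 of 95 and its 21 nt exon was at 99.0% and 97.9%. The other 4, of 27 nt, were at 99.4% and 99.5%, 100% and 99.5%, 98.0% and 95.9%, and 99.0% and 99.0%, in the order of the gene.

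Collagen genes had a distinct set of 27 nt microexons. The triple helix of a collagen is a repeat of 3 residues that starts with glycine, whose codons begin with GG. Of 15 described annotated collagen exons of 27 nt in 6 genes, 12 had GG at bases 1, 10 and 19 on the transcript strand, as the Col6a1 and Col4a1 exons shown above do. So did both annotated 27 nt exons of Colq, the gene of the collagen tail of acetylcholinesterase. None of the 71 such exons in other genes did. Of the 15, 12 were over 95% in both libraries, and the lowest inclusion was 87.4% in replicate 1 and 84.4% in replicate 2.

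The best covered collagen exons were in Col4a1 of basement membranes (848 of 854 counts and 471 of 481 and, for a second exon, 812 of 813 counts and 452 of 454) and in Col6a1 of the muscle matrix (675 of 693 counts and 420 of 435 and 669 of 672 counts and 414 of 418). The 3 below the limit were Col18a1 (27 nt, 87.4% and 84.4%) and 2 exons of Col6a2 (94.7% and 89.6% at chr10:76611163-76611189 and 94.7% and 89.4% at chr10:76611416-76611442). Colq, which anchors acetylcholinesterase at the neuromuscular junction through a collagen tail, had a 27 nt exon on 18 of 20 counts and 35 of 39. A pair of shorter exons were also nearly always carried, 14 nt in Col5a2 (162 of 162 counts and 80 of 81) and 17 nt in Col2a1 (26 of 26 counts and 11 of 11). So were a 21 nt exon of Col6a2 (435 of 452 counts and 247 of 253), a 27 nt exon of Col12a1 (11 of 11 counts and 15 of 15), 3 of Col16a1 and 4 further ones of Col18a1, the last 7 with between 62 and 167 inclusion counts in each library. Unannotated collagen exons of 19 nt in Col1a1 (2 exons), Col3a1 and Col6a1 had 1 inclusion count each. That of Col6a1 lies within the annotated 27 nt exon at chr10:76718517-76718543, and models with the 27 nt exon are not informative for it.

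Some microexons of equal length in related genes had similar bases. Over 53 pairs of described annotated microexons of equal length in genes that share a symbol stem, the median identity was 50%. Of these pairs, 21 were between TRIM genes, at a median of 39.1%. Over 6362 other pairs of equal length the median was 28.6%, with a 95th percentile of 44.4%. The 3 death-associated protein kinase exons shown above shared 81.5 to 92.6% of their bases, those of the poly(C)-binding proteins 83.3 to 87.5%, and those of the YTH-domain readers of methylated adenosine 80.0 to 88.0%. Similar bases with different levels were found in Mark2 and Mark3, which share 77.8% of 27 bases, since the Mark2 exon was at 23.4% and 29.7% and the Mark3 exon at 97.4% and 95.3%. Not every stem was a family in this sense, since Mtmr1 and Mtmr3 shared 22.2% of 27 bases, and 7 TRIM genes with a 23 nt exon shared 21.7 to 65.2%.

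Among annotated microexons of trafficking genes on the fixed list, those of Cltc and Git1 and the Dctn1 exon at chr6:83183936-83183956 were under 5% in both libraries. The 21 nt exon of Cltc, the clathrin heavy chain, was on 1 of 63 counts and 0 of 55. The 27 nt exon of Git1, an Arf GTPase regulator, was on 0 of 67 counts and 1 of 62, and the 21 nt exon of Vti1a, a SNARE protein, was on 0 of 10 counts and 2 of 19. The Vti1a value rests on few counts. The 20 nt exon of Cacnb1, the beta subunit of the muscle calcium channel, was on 7 of 256 counts and 11 of 308. That of Cacnb3 was on 1 of 15 counts and 0 of 14. The 24 nt exon of Picalm, a clathrin adaptor, was split, with 12 of 44 counts and 1 of 28.

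The list of 23 genes known for neuronal microexons had 10 members in 10 genes, and 2 of these were described, against 384 of all 893 members. Whether a member is described depends on the informative counts at its gene. The 2 were those of Mef2d and Itsn1, the latter a 23 nt unannotated exon on 2 of 52 counts and 2 of 20. Of the regulators, Srrm4 and Srrm3 had no count in either library, which allows up to 3.00 and 2.92 CPM (the count scaled to a common total of annotated gene counts). Several muscle regulators were above that level. Rbfox1 was at 32.0 and 20.5 CPM, Rbfox2 at 119 and 93.5, Mbnl1 at 55.1 and 37.0, and Mbnl2 at 184 and 155. Celf1 was at 40.1 and 42.9 CPM, Rbm24 at 272 and 313, and Qk at 366 and 351. Other members of these families, Mbnl3 at 1.00 and 2.92 CPM and Rbfox3 at 1.00 and 1.95, were not above the level that no count allows. Ptbp1, a repressor of neuronal exons, was at 72.1 and 78.0 CPM, and its neuronal relative Ptbp2 at 16.0 and 27.3. The 8 neuronal marker genes summed to 11 and 15 counts, with Snap25, Elavl4 and Syt1 at 0, against 148203 and 153460 counts on the 8 skeletal muscle markers. Nothing here links a regulator's level to an exon, since there was 1 group.

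The 18 annotated microexons under 5% in both libraries also included 15 of 683 counts and 6 of 625 for a 24 nt exon of Gnas, the stimulatory G protein alpha subunit, 2 of 372 counts and 4 of 340 for a 21 nt exon of Fastk, and 1 of 251 counts and 0 of 287 for a 17 nt exon of Pdlim7. The rest were exons of Car14 (21 nt), Chmp1a, Lrrc28, Lysmd4, Micu2, Ppfia1, Slc39a13, Snx2, Suds3 (20 nt), Traf3ip3 and Zfr, and the Dctn1 exon described above. None of the rest had more than 3 inclusion counts in a library.

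The 51 unannotated microexons under 5% in both libraries included 40 with 1 inclusion count in the sum of both libraries. The one with the most counts was a 27 nt exon of Ktn1, on 3 of 94 counts and 1 of 75. Matrix and muscle genes among them were Col3a1 with 4 exons, Col6a1, Tnnt3 (the 7 nt exon), Tpm2, Pdlim5, Ank1 and Zyx, and the myelin gene Mbp had 1. Signalling and cytoskeletal genes were Actr3, Cast, Dstn, Ephb4, Fscn1, Mast2, Phldb2 with 2 exons, Ptk2 and Tspan9. Genes of RNA metabolism and the nucleus were Btf3l4, Chtop, Eprs, Htatsf1, Phf14, Rpa1, Srrm1 with 2 exons, Srsf3 and Zmynd11. Others were 1110004F10Rik, Acaa2, Aifm1, Arl6ip5, Dexi, Dnpep, Fbxo22, Fbxo38, Ifi27, Nt5c3b, Rab28, Snx21, Ssr1, Trappc9, Ttc7b, Usp13, Vps4b and Xpo6.

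Some models without a microexon had flanking exons that were longer by about its length. In these, the 2 neighbouring exons together exceeded those on including models by the microexon's own length within 3 bases. Each neighbour could differ by at most 60 bases. In 9 of the 104 intermediate microexons (8.65%) such models made up at least 25% of the spanning counts. The same held for 1 of 352 intermediate exons of 28 to 50 nt (0.284%) and none of 1229 of 51 to 100 nt. Under the limit of 60 bases, a single longer neighbour cannot match an exon well above that length. The class of 51 to 100 nt is therefore not on equal terms with the microexons. The sequences shown here are those with at least 20 counts on such models that made up over 90% of the spanning counts.
Herc3, 24 nt, chr6:58884950-58884973, plus strand: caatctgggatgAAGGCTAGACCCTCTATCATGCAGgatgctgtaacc
Trim55, 23 nt, chr3:19671407-19671429, plus strand: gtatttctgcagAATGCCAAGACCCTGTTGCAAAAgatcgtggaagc
Bsg, 25 nt, chr10:79711256-79711280, plus strand: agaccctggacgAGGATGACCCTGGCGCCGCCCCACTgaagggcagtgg

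In Herc3 the downstream exon was longer by 26 bases on 35 and 22 of the 35 and 23 spanning counts. In Trim55 it was longer by 25 bases on 12 and 8 of the 12 and 9 spanning counts. In Bsg it was longer by 28 bases on 27 and 39 of the 34 and 46 spanning counts. The inclusion of 53.9% and 55.8% in Herc3 would be 100% and 98.1% if such models were counted as holding the exon, and that of Trim55 100% in both libraries. The remaining ones were in Mef2d, with an upstream exon longer by 6 and a downstream exon longer by 17 bases, and in Tnnt1 (27 nt), Tmeff2, Clasrp, Rgs12 and Gkap1, the last with 1 such count. The reverse was found at the 20 nt exon of Suds3, which was on 0 of 64 counts and 1 of 72, since 62 and 69 of its spanning counts lay on models with an upstream exon longer by 4 and a downstream exon longer by 16 bases. Whether such models are transcripts with other splice sites or other placements of the same reads was not tested, because intron sequence was not used here.

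**Figure D4:**
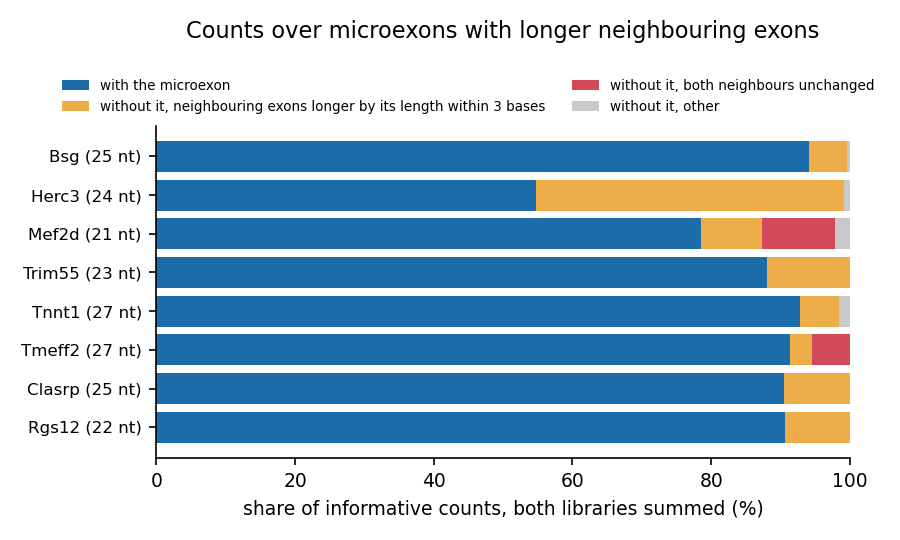
Share of informative counts of both libraries summed (x axis, %) for the 8 intermediate microexons with at least 3 counts on longer-neighbour models, split into models with the microexon, models whose neighbouring exons are longer by its length within 3 bases, models with both neighbours unchanged, and other models. In Herc3 the longer-neighbour models take nearly all of the counts without the microexon, and in Mef2d both kinds of skipping occur.

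Where a gene had 2 microexons, single models showed which were used together. In Mtmr1, 23 and 12 counts held both the 24 nt and the 27 nt exon, 5 and 3 held the 24 nt exon alone, none held the 27 nt exon alone, and 8 and 14 held neither. In Car14, a membrane carbonic anhydrase with Car14 (21 nt, 37.1% and 37.2%) and Car14 (22 nt, 37.1% and 38.6%), the 2 exons were on the same models in 13 and 16 counts, both absent in 22 and 27, and never apart. The 2 neighbouring 27 nt exons of Col6a2 were both present in 442 and 237 counts, both absent in 25 and 28, and never apart. These 3 pairs were thus used in nested or joint fashion on the models counted.

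In Tnnt1, Ptk2 and Tnnt3, some models held one exon of a pair without the other. In Tnnt1, 41 and 55 counts held the 27 nt and 22 nt exons together, 34 and 50 the 27 nt exon alone, 0 and 5 the 22 nt exon alone and 5 and 4 neither. In Ptk2, 2 and 1 counts held both the 18 nt and 21 nt exons, 1 and 3 the 18 nt exon alone, 16 and 4 the 21 nt exon alone and 62 and 26 neither. In Tnnt3, the 18 nt and 15 nt exons occurred together in 8 and 4 counts, apart in 0 and 1, and 102 and 167 counts held neither. The 18 nt and 19 nt exons of Tnnt3 occurred together in 8 and 4 counts. The 19 nt exon occurred without the 18 nt exon in 6 and 9. The 15 nt and 19 nt exons occurred together in 8 and 5 counts and the 19 nt exon without the 15 nt exon in 6 and 9.

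The libraries differed little in microexon inclusion. The median absolute difference was 1.74 percentage points over the 384 and 4.88 over the 104 intermediate ones, and 79 of the 104 differed by under 10 points. Each exon was tested between the libraries with Fisher's exact test, two-sided, and Benjamini-Hochberg adjustment over all 72357 internal exons with at least 10 informative counts in each library. It called 5 exons (0.00691% of those tested), and 1 of the 384 microexons was among them. The test knows sampling of reads alone, and a call says that these libraries differ, not that mice or conditions do.

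**Figure D5:**
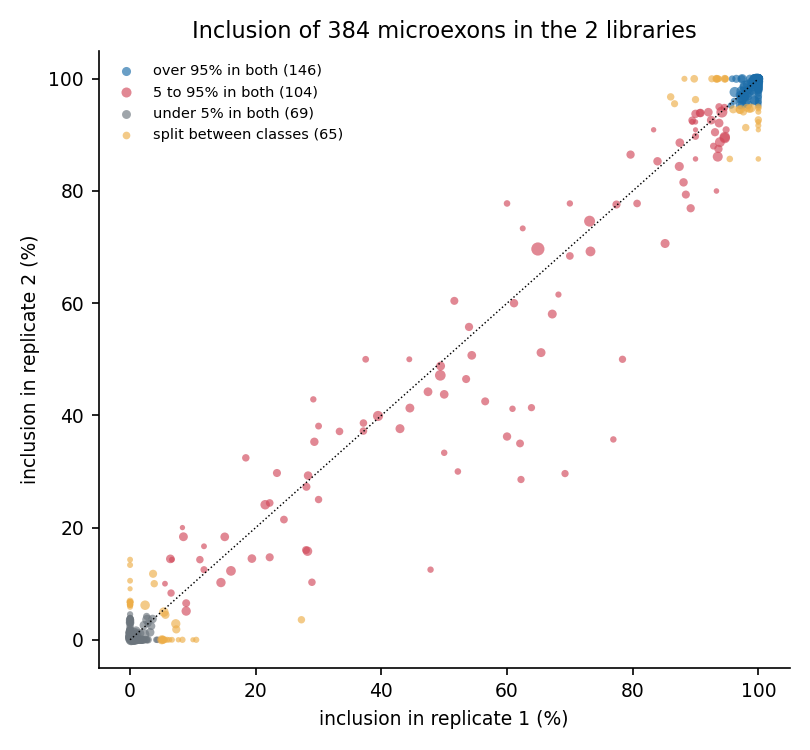
Inclusion of the 384 described microexons in replicate 1 (x axis, %) and replicate 2 (y axis, %), with point size rising with the informative counts and the dotted line at equal values. Points of the 104 intermediate exons spread around the line, with a median absolute difference of 4.88 percentage points.

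The microexon called was the 25 nt exon of Myl1 at chr1:66934518-66934542, an essential light chain gene of fast muscle myosin with 2 promoters. It was on 3718 of the 5728 informative counts of replicate 1 (64.9%) and 5630 of the 8082 of replicate 2 (69.7%), with intervals of 63.7 to 66.1% and 68.6 to 70.7% that do not overlap. The difference was 4.75 points higher in replicate 2 (adjusted p = 0.000151 by Fisher's exact test with Benjamini-Hochberg adjustment). Of its 2010 and 2452 spanning counts, 9 and 8 joined both flanking exons, so that it was hardly ever a cassette. A 28 nt exon of the same gene, just above the length limit, was at 34.0% and 29.4% and was also called (adjusted p = 0.000151 by Fisher's exact test). The 2 exons were mostly on different models, since 61 and 107 counts held both, 3657 and 5523 the 25 nt exon alone and 1928 and 2308 the 28 nt exon alone. With spanning introns restricted to those that join both flanking exons, no microexon was called by Fisher's exact test or by a chi-square test, and 9 of 327 had an unadjusted p under 0.05.

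The other 3 exons called were longer, a 42 nt exon of Atp2a1, a 54 nt exon of Mybpc1 and a 90 nt exon of Acta1. With the one called, 19 of the 384 microexons had an unadjusted p under 0.05 (4.95%), against 413 of all 72357 internal exons (0.571%). An exon without spanning counts in either library cannot reach that limit. Exons over 95% in both libraries made up 38.0% of the microexons but 86.2% of exons over 100 and up to 200 nt. The 2 shares are therefore not on equal terms. The next smallest adjusted p of a microexon was 1.0 in Fisher's exact test. The largest differences were in exons with few counts, and all 4 over 30 points were lower in replicate 2: Snx14 (20 of 26 counts and 5 of 14), Fbxo25 (27 of 39 counts and 8 of 27), Mink1 (11 of 23 counts and 2 of 16) and Gopc (28 of 45 counts and 6 of 21). The libraries differed in markers of other cell types, among them 4 and 1000 counts on 6 epidermal markers and 36893 and 25668 on 6 fibroblast markers. The part of those cells in any microexon's inclusion was not tested.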

How the data were processed

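Long-read RNA-seq of 2 gastrocnemius libraries was used. The deposited tables give the raw count of reads on each transcript model in TALON format, per the file headers, and the transcript models give exon coordinates on mm10 with GENCODE M21, per the readme beside the files. For the aligner, platform and tool versions, nothing is given in the sources used here. Models of the classes Known, ISM, NIC and NNC on mouse chromosomes were kept. These classes held 996254 and 1008613 counts with spike-ins and 969909 and 993579 without them. For every internal exon, inclusion was computed in Python 3 with pandas from counts on models with its exact ends and counts on models with a spanning intron. Models that end inside or before the exon, or hold another exon over its bases, were not informative. Full-length and truncated models count alike, and counts are of reads without known molecular identifiers.

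Libraries were compared with SciPy's two-sided Fisher's exact test and Benjamini-Hochberg adjustment over all internal exons with at least 10 informative counts in each library, at 0.05. The scripts were tested on simulated data. The members and gene lists were chosen with earlier results of these data known. The text names each described microexon at 5 to 95% or under 5% in both libraries, those called, the 10 over 95% with the most counts, the shortest 5, and those of the gene lists, apart from a result that is not reported here. Unannotated exons have no sequence in the transcripts used, and coding exons alone were printed. Gene levels are CPM of counts on annotated mouse genes. Alternatives were the minimum of counts, the model classes, the spanning introns counted, the exon ends, the length limit, the test and single libraries.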

Additional observations from a re-analysis of the deposited data

How the results depend on the processing

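No paired analysis was possible because the series has 1 group. With at least 20 or at least 5 informative counts the median inclusion was 90.3% or 90.5%. With Known models alone, 181 microexons were described, 25 were intermediate, the median was 100%, the share in a Known model was 100% by construction and 3 internal exons of any length were called. With Known, NIC and NNC models the median was 89.5%, 9 internal exons were called and the summed level of the 30 splicing regulators was 2548 CPM against 2668. Exon ends within 5 bases gave a median of 92.8%, and spanning introns that share a splice site gave 93.0%. An upper limit of 30 nt gave 603 described exons, a median of 94.2%, 264 over 95% and 2 called. Leaving out 1 library in turn gave medians of 90 to 90.7% and 146 to 158 intermediate exons. The cause was not tested where a value moved, apart from the number of exons or models that enter.

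These alternatives were chosen after seeing the data. Spanning introns that join both flanking exons gave a median of 100%, 70.0% in a Known model, 0 microexons called (9 with an unadjusted p under 0.05 by Fisher's exact test, 0 called by chi-square) and 3 internal exons called. Counting models with an overlapping exon as not including gave a median of 10.3%, 43.4% in a Known model and 47 internal exons called. Counting longer neighbouring exons as inclusion gave a median of 91.6%. Exact GENCODE M21 ends gave a median of 96.7% and 78.9% in a Known model. Over all other alternatives, described exons numbered 295 to 560 (560 with overlapping exons counted as not including), intermediate ones 74 to 135 and those over 95% 114 to 194 (74 and 194 with both flanking exons joined), and lengths that are a multiple of 3 made up 51.3 to 59.6%. Depth limits single exons, since the median exon had 54.0 and 48.5 informative counts.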
